A study of Mus musculus with 8 samples.

Results

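The genes described here are 10 genes of the prostaglandin system that are measured in whole uteri of mice at postnatal day 10 (PD10). They were chosen by name and function, with earlier results of these data known. There were 5 enzymes that make or inactivate prostaglandins (*Ptgs1*, *Ptgs2*, *Ptges*, *Ptgis* and *Hpgd*) and 5 receptors that bind them (*Ptger2*, *Ptger3*, *Ptger4*, *Ptgfr* and *Ptgir*). All 10 were among the 27179 genes counted and among the 16658 genes that passed the filter on low counts. The 4 control mice were Ezh2 f/f, that is, homozygous for a floxed *Ezh2* allele, and carried no Cre. Conditional knockout (cKO) was made in 4 mice of the genotype Ezh2 f/f; Acre, and the study's methods name the Cre as *Amhr2*-Cre. This Cre is active in mesenchyme-derived cells of the tract and not in all cells of the uterus, and the floxed part holds exons 14 and 15. The labels give no further treatment, and the mice of both groups were kept on a C57BL/6/129SvEv background. One poly(A) RNA-seq library was made from each uterus, and the comparison asked how transcript levels changed with loss of EZH2, the methyltransferase of polycomb repressive complex 2.

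Prostaglandins are made from arachidonic acid that phospholipases release from membranes. The cyclooxygenases PTGS1 (COX-1) and PTGS2 (COX-2) convert it to prostaglandin H, which terminal synthases turn into the individual prostaglandins, such as prostaglandin E by PTGES and prostacyclin by PTGIS, while HPGD oxidises prostaglandins to forms that the receptors hardly bind. The receptors are G protein-coupled: EP2, EP4 and the prostacyclin receptor (IP) raise cyclic AMP, EP3 mainly lowers it, and the prostaglandin F receptor (FP) raises calcium. In the uterus these signals are known for their parts in implantation, decidualization, contraction and labour.

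Levels are given as CPM (each gene's count scaled to a common library total) after TMM scaling of the libraries, and a gene is said to have risen or fallen only where edgeR's quasi-likelihood test gave an adjusted p under 0.05 over all genes tested. Of the 10 genes, 3 passed this test, all of them receptors: *Ptger3* rose 1.68-fold in cKO uteri, *Ptger4* fell 1.57-fold and *Ptgfr* fell 1.51-fold. None of the 5 enzymes passed it, with *Ptgs2* nearest at 1.57-fold higher and an adjusted p of 0.0542. Over all genes tested, 889 (5.34%) passed, of which 437 (2.62%) were higher and 452 (2.71%) were lower, so 3 of 10 is set against a background of 5.34%. The study also asked for a fold change over 2. In the present fit 217 genes (1.3%) met this as well, a count that is not the study's own, and none of the 10 did. The control and cKO libraries did not overlap for 6 of the 10 genes, against 12.3% of all genes tested. At an unadjusted p under 0.05 there were 8 of the 10, against 21.2% of all genes. The median log2 fold change was 0.21 over the 10 genes and 0 over all genes tested. Because the 10 genes were chosen with earlier results known, these counts describe the list and are not a test of it.

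**Figure D1:**
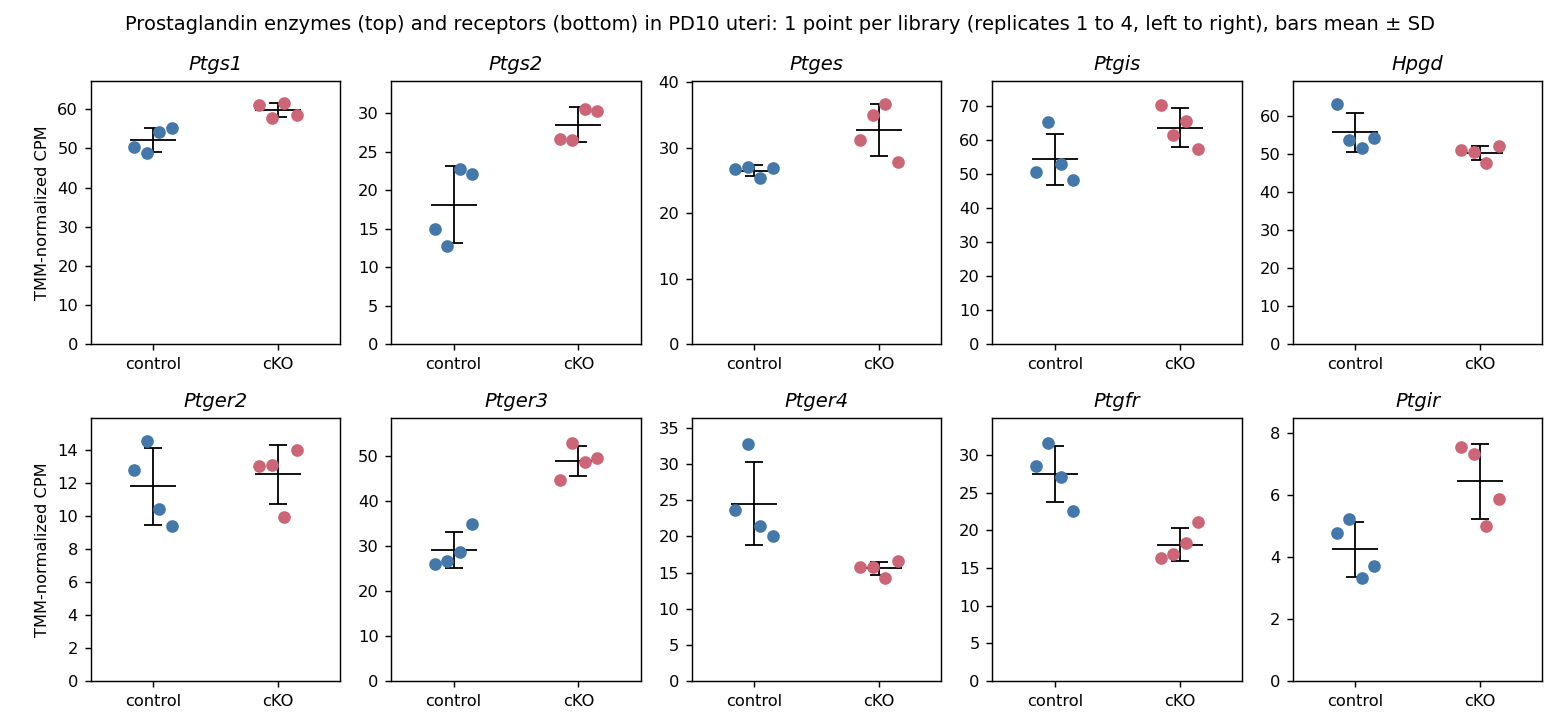
TMM-normalized CPM (vertical axis, from 0) of the 10 genes in each of the 4 control and 4 cKO uteri, with 1 panel per gene, 1 point per library and bars for mean ± SD. The cKO libraries lie wholly above the controls for *Ptgs1*, *Ptgs2*, *Ptges* and *Ptger3* and wholly below them for *Ptger4* and *Ptgfr*.

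The libraries held between 25287141 and 36685807 counts on genes, and the lowest count of any of the 10 genes in a library was 93, for *Ptgir*. The targeted gene, *Ezh2*, averaged 45.0 ± 8.70 CPM in controls against 36.8 ± 4.41 CPM in cKO (SD over 4 mice each), with an overlap of the groups and a log2 fold change of -0.29 (SE 0.13, edgeR adjusted p = 0.247). Reads from all exons and all cells enter this value, so it checks the genotype labels only in part. Markers of the uterine layers were present: 8 smooth muscle markers summed to 7500 to 9530 CPM over the 8 libraries. The 7 stromal markers summed to 8250 to 10700 CPM in control against 9890 to 12700 CPM in cKO libraries, and of them *Col3a1* rose 1.28-fold (edgeR adjusted p = 0.0454) and *Hoxa11* fell to 0.713 of control (edgeR adjusted p = 0.00522). The 7 epithelial markers summed to 1170 to 1390 against 1320 to 1620 CPM, and 0 of them passed, with 3 at an unadjusted p under 0.05. Summed adipocyte markers stood at 11.9 to 15.5 CPM in controls, at 112, 243 and 116 CPM in cKO replicates 1 to 3, and at 14.3 CPM in cKO replicate 4. Most of the control sums and of the sum in cKO replicate 4 was *Lipe*, at 9.62 to 11.2 CPM in controls and 10.2 CPM in that uterus. All 7 of the 9 markers that were tested had a positive log2 fold change, and *Adrb3*, named after its values were seen, was the 1 past the test (2.53-fold, edgeR adjusted p = 0.00204). *Adrb3* was at 0.915 to 1.18 CPM in controls and at 2.80, 3.35, 2.43 and 2.10 CPM in cKO replicates 1 to 4, so that cKO replicate 4 was above the controls for this gene and, slightly, for *Fabp4*. *Fabp4*, the fatty acid carrier of adipocytes, was at 0.852, 1.24, 1.43 and 0.659 CPM in controls and 39.0, 107, 45.3 and 1.61 CPM in cKO, while *Plin1* was at 0 in 1 control and *Lep* at 0 in 2 controls and in cKO replicate 4. *Adipoq* was between 0.0631 and 0.387 CPM in controls, and at 11.7, 23.7, 14.4 and 0.0350 CPM in cKO replicates 1 to 4. The 4 gland markers summed to 3.87 to 8.05 CPM in control and 0.216 to 0.904 CPM in cKO, with *Prss29* and *Spink1* at 0 throughout, and both markers tested, *Foxa2* and *Cxcl15*, fell (edgeR adjusted p = 0.000241 and 0.000385). The 5 NK cell markers summed to 5.02 to 9.56 against 1.05 to 2.34 CPM, and 4 of the 5 fell, each by over 2-fold. Mast cell markers, of a cell type known to make prostaglandin D, summed to 36.3 to 45.9 CPM in control and 52.2 to 67.3 CPM in cKO libraries, and 0 of the 5 tested passed (3 had an unadjusted p under 0.05). Most of the control sums was *Kit* (24.8 to 36.5 CPM, log2 fold change -0.04), and the fitted folds of the 4 protease genes, named after their values were seen, were 2.10 (*Cpa3*), 2.15 (*Cma1*, without overlap), 2.51 (*Mcpt4*) and 2.42 (*Tpsb2*), with edgeR adjusted p from 0.0812 to 0.238. The part of these cell types in the prostaglandin results was not tested except where a value without them is given. In bulk tissue, fewer cells of a type and less RNA per cell cannot be told apart.

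Of the receptors, *Ptger3* (Entrez 19218, GRCm38 chr3:157566821-157644758) encodes EP3, which binds prostaglandin E and couples mainly to inhibition of adenylyl cyclase. It was at 26.0, 26.7, 28.7 and 34.8 CPM in control replicates 1 to 4 and at 44.5, 52.7, 48.5 and 49.5 CPM in cKO replicates 1 to 4. Every cKO library was above every control, the nearest pair being 34.8 and 44.5 CPM. The control mean was 29.1 ± 4.02 CPM and the cKO mean 48.8 ± 3.36 CPM (SD, 4 mice each). The log2 fold change was 0.75 (SE 0.09, adjusted p = 0.000533 by edgeR), a fold of 1.68 with a 95% interval of 1.46 to 1.93. The exact two-sided permutation test over the 70 arrangements of the libraries gave p = 0.029, the smallest that 4 against 4 allows. In cKO replicate 4, which had the lowest summed adipocyte markers of the cKO uteri, *Ptger3* lay within the range of the other cKO uteri.

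*Ptger4* (Entrez 19219, chr15:5233399-5244187) encodes EP4, a second receptor for prostaglandin E, which raises cyclic AMP. It was at 23.7, 32.8, 21.5 and 20.0 CPM in control and at 15.7, 15.7, 14.3 and 16.6 CPM in cKO replicates 1 to 4. The groups did not overlap, and control replicate 2 stood highest while the 4 cKO libraries lay close together. Control uteri averaged 24.5 ± 5.70 CPM and cKO uteri 15.6 ± 0.952 CPM (SD, 4 mice each), which gives a log2 fold change of -0.65 (SE 0.14, adjusted p = 0.0177 by edgeR) and a fold of 0.637 with a 95% interval of 0.519 to 0.782. The exact permutation test gave p = 0.029. The call was lost when control replicate 1, cKO replicate 1 or cKO replicate 3 was left out, with edgeR adjusted p = 0.0507, 0.0596 and 0.0586.

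*Ptgfr* (Entrez 19220, chr3:151798610-151837528) encodes FP, the receptor through which prostaglandin F contracts the myometrium. It was at 28.6, 31.6, 27.1 and 22.6 CPM in control and at 16.3, 16.8, 18.3 and 21.1 CPM in cKO replicates 1 to 4. The nearest libraries of the groups, control replicate 4 and cKO replicate 4, were 22.6 and 21.1 CPM, and the others lay further apart. Control uteri averaged 27.5 ± 3.75 CPM and cKO uteri 18.1 ± 2.13 CPM (SD, 4 mice each), with a log2 fold change of -0.60 (SE 0.11, adjusted p = 0.00741 by edgeR) and a fold of 0.661 with a 95% interval of 0.561 to 0.780. The exact permutation test gave p = 0.029. The summed smooth muscle markers ranged from 7500 to 9530 CPM in control libraries and from 8330 to 9530 CPM in cKO libraries, and none of the 8 markers passed the test. All 8 had positive log2 fold changes (median 0.12), and 2 had an unadjusted edgeR p under 0.05. Which cells of the uterus held *Ptgfr* was not measured, and the part of smooth muscle in its value was not tested.

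The other receptors did not pass the test. *Ptgir* (Entrez 19222, chr7:16906490-16910905), the prostacyclin receptor, was the lowest of the 10 genes, at 4.76, 5.22, 3.32 and 3.71 CPM in control and 7.53, 7.33, 4.99 and 5.88 CPM in cKO. Its groups overlapped by 1 pair of libraries, control replicate 2 and cKO replicate 3. The means were 4.25 ± 0.889 CPM (control) and 6.43 ± 1.21 CPM (cKO; SD, 4 mice each), with a log2 fold change of 0.60 (SE 0.18, adjusted p = 0.0730 by edgeR) and an interval of the fold from 1.16 to 1.98. It passed with DESeq2 (adjusted p = 0.0219), with the likelihood ratio test of edgeR (0.0281) and with a replicate block (edgeR, 0.014). It also passed in 1 of the 8 fits without 1 library, that without control replicate 2 (edgeR, 0.0383), while the other 7 gave 0.055 to 0.192. With the adipocyte score its log2 fold change was 0.42 (SE 0.27, edgeR adjusted p = 0.776). *Ptger2* (Entrez 19217, chr14:44988111-45003820) encodes EP2, which like EP4 raises cyclic AMP, and was at 12.8, 14.5, 10.4 and 9.39 CPM in control and 13.0, 13.1, 9.92 and 14.0 CPM in cKO. The groups lay in the same range. Its log2 fold change was 0.09 (SE 0.15, adjusted p = 0.768 by edgeR), with an interval of the fold from 0.853 to 1.32. Of the 3 prostaglandin E receptors among these genes, *Ptger3* therefore rose, *Ptger4* fell and *Ptger2* had an interval that reached both sides of 1.

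The promoters of the 3 receptor genes that passed the test are shown because PRC2, the complex that EZH2 belongs to, is known to sit at many CpG-rich promoters, and these 3 genes went in opposite directions. Sequences are those of RefSeq (GRCm38.p6), which held windows for 9 of the 10 genes, *Ptgis* being the one without. Each reads 5′ to 3′ on the gene's own strand and ends at the base before the outermost start of the gene, with every CpG in capitals. They are *Ptger3* at chr3:157566626-157566820 (plus strand, 195 bases with 11 CpGs), *Ptger4* at chr15:5244188-5244437 (minus strand, 250 bases with 19 CpGs) and *Ptgfr* at chr3:151837529-151837778 (minus strand, 250 bases with 10 CpGs).
Ptger3: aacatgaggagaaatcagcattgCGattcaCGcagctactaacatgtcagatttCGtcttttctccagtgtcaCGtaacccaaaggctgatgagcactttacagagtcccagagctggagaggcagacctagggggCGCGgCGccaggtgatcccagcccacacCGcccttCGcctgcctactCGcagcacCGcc
Ptger4: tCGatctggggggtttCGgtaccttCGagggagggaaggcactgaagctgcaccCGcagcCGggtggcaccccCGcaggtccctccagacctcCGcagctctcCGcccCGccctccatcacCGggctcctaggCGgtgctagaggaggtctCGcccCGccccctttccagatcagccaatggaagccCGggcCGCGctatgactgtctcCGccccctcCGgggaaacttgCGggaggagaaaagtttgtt
Ptgfr: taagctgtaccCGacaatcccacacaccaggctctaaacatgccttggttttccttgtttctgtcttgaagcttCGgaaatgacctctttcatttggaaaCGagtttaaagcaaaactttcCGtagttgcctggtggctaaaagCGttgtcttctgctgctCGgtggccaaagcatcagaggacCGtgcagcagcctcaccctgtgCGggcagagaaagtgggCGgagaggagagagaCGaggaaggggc

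The full window of 250 bases before the start that RefSeq gives held 21 CpGs in *Ptger3* (this window runs past the outermost gene start), 19 in *Ptger4* and 10 in *Ptgfr*. The median over 32851 such windows of mouse genes was 6, and 83.7%, 80.3% and 62.2% of windows held fewer than these 3. The other 6 windows held 13 CpGs (*Ptgs2*), 9 (*Hpgd*), 8 (*Ptges*), 5 (*Ptgs1* and *Ptgir*) and 3 (*Ptger2*). Of these, the windows of *Ptgs1* and *Ptges* lie inside the gene, at an inner start, and not before its outermost start. The full windows with the most CpGs were those of *Ptger3*, which rose, and *Ptger4*, which fell. Of the 21 CpGs of *Ptger3*, 11 lay before the outermost gene start. A link between CpG number and direction was not tested. A GC box (GGGCGG on either strand, which itself holds a CpG) was found in 7 of the 9 windows and in 32.7% of all windows. The half-site of the cyclic AMP response element (TGACG, either strand) was in 0 of 9 against 17.8% of all, and TATAAA (either strand) was in 0 of 9 against 12.4%. These matches describe letters in the windows, and no binding or histone mark was measured in these libraries.

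The 2 cyclooxygenases were both higher in every cKO library than in every control, without passing the adjusted test. *Ptgs2* (Entrez 19225, chr1:150100031-150108234), the inducible COX-2, was at 15.0, 12.7, 22.8 and 22.1 CPM in control and at 26.6, 26.5, 30.6 and 30.3 CPM in cKO. Control replicates 1 and 2 were the low ones, and the spread between controls was larger than that between cKO uteri. The means were 18.1 ± 5.07 CPM (control) and 28.5 ± 2.24 CPM (cKO; SD, 4 mice each), with a log2 fold change of 0.65 (SE 0.17, adjusted p = 0.0542 by edgeR), an interval of the fold from 1.21 to 2.03 and an exact permutation p of 0.029. Of the 8 fits without 1 library it passed in 3, without control replicate 2, 3 or 4 (edgeR adjusted p = 0.0443, 0.0315 and 0.0379), while the other 5 gave 0.0752 to 0.147. With an adipocyte score as a covariate the log2 fold change was 0.78 (SE 0.26, edgeR adjusted p = 0.397). It passed in other tests, namely limma-voom (0.0379), DESeq2 (0.00229), the likelihood ratio test of edgeR (0.00521) and edgeR with robust = FALSE (0.0385). With a replicate block, though the replicate numbers were not taken as pairs, its edgeR adjusted p was 0.00206. *Ptgs2os*, an antisense neighbour that lies before *Ptgs2* and does not overlap it in RefSeq, averaged 0.555 ± 0.137 CPM in controls against 0.703 ± 0.158 CPM in cKO uteri. *Ptgs1* (Entrez 19224, chr2:36216742-36258593), the constitutive COX-1, was at 50.4, 48.9, 54.2 and 55.2 CPM in control and 61.1, 57.8, 61.5 and 58.5 CPM in cKO. The libraries of each genotype lay close together. Its log2 fold change was 0.19 (SE 0.06, adjusted p = 0.0768 by edgeR), with an interval of the fold from 1.05 to 1.25 and an exact permutation p of 0.029.

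*Ptges* (Entrez 64292, chr2:30889471-30931020), the inducible prostaglandin E synthase, was at 26.7, 27.1, 25.3 and 26.8 CPM in control and at 31.2, 35.0, 36.6 and 27.8 CPM in cKO. The groups did not overlap, and cKO replicate 4, the cKO uterus with the lowest summed adipocyte markers, lay next to the controls. The log2 fold change was 0.30 (SE 0.08, adjusted p = 0.0590 by edgeR), with an interval of the fold from 1.09 to 1.40. Of the 8 fits without 1 library, *Ptges* passed in 1, that without cKO replicate 4 (edgeR adjusted p = 0.00998), and the others ran up to 0.155. *Ptges* also passed with upper quartile scaling (edgeR adjusted p = 0.0469), DESeq2 (0.0205) and the likelihood ratio test of edgeR (0.0241). With an adipocyte score of each library as a covariate the log2 fold change was 0.08 (edgeR adjusted p = 0.939). The score was between -1.53 and -1.03 in controls, between 1.87 and 2.74 in cKO replicates 1 to 3 and -1.28 in cKO replicate 4, so the genotype term of such a fit rests largely on that 1 library. *Ptgis* (Entrez 19223, chr2:167203194-167252150), the prostacyclin synthase, was at 50.6, 65.4, 53.0 and 48.4 CPM in control and 70.5, 61.4, 65.6 and 57.3 CPM in cKO. Control replicate 2 lay among the cKO libraries, and the log2 fold change was 0.23 (SE 0.09, adjusted p = 0.185 by edgeR). It passed in 1 of the 8 fits without 1 library, that without control replicate 2 (edgeR adjusted p = 0.022), and the others lay between 0.0891 and 0.386. In the fit with the adipocyte score its log2 fold change was 0.08 (edgeR adjusted p = 0.965).

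*Hpgd* (Entrez 15446, chr8:56294552-56321046), which encodes the dehydrogenase that inactivates prostaglandins, was the one enzyme of the 5 with a lower mean in cKO. It was at 63.4, 53.7, 51.7 and 54.4 CPM in control and 51.2, 50.6, 47.7 and 52.1 CPM in cKO. The groups overlapped in a narrow range, with control replicate 1 apart from the other libraries. The log2 fold change was -0.15 (SE 0.07, adjusted p = 0.247 by edgeR), and the interval of the fold ran from 0.813 to 1.00. Over the 5 enzymes, 4 log2 fold changes were positive and 1 was negative, with a median of 0.23, and 4 had an unadjusted p under 0.05. DESeq2 gave an adjusted p under 0.05 to 3 of the 5 (*Ptgs1*, *Ptgs2* and *Ptges*) and to 9.06% of all genes, the likelihood ratio test to 2 of the 5 and 9.08% of all genes, and limma-voom to 1 of the 5 and 5.02% of all genes.

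Levels of different genes were compared per kilobase of the longest coding transcript in GENCODE vM21. In control uteri, *Hpgd* was the most abundant at 33.2 CPM per kb (range 30.7 to 37.7 over 4 libraries), followed by *Ptgis* at 25.8 (23.0 to 31.0) and *Ptgs1* at 18.2 (17.1 to 19.3). *Hpgd* and *Ptgis* overlapped in range, and *Ptgs1* lay below both. *Ptger3* came next, and on this length first of the receptors, at 9.23 CPM per kb (8.26 to 11.1), then *Ptger4* at 7.40 (6.04 to 9.90) and *Ptges* at 7.26 (6.94 to 7.43), whose ranges ran into each other. *Ptgfr* at 4.15 (3.41 to 4.77), *Ptgs2* at 4.08 (2.85 to 5.12) and *Ptger2* at 3.20 (2.55 to 3.94) also overlapped, and *Ptgir* was lowest at 1.29 (1.00 to 1.58). On this scale *Ptgs1* stood above *Ptgs2* in every library.

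In cKO uteri the order had *Ptgis* at 30.2 CPM per kb (27.2 to 33.5), *Hpgd* at 29.9 (28.3 to 31.0) and *Ptgs1* at 20.8 (20.2 to 21.5). *Ptger3* followed at 15.5 (14.1 to 16.7), *Ptges* at 8.95 (7.62 to 10.0) and *Ptgs2* at 6.40 (5.95 to 6.87). The last was above all receptors but *Ptger3*, without overlap with *Ptger4* at 4.70 (4.32 to 5.01), while in controls it had been below *Ptger4*. *Ptger2* at 3.39 (2.69 to 3.80) and *Ptgfr* at 2.74 (2.46 to 3.19) overlapped, and *Ptgir* stood at 1.95 (1.51 to 2.28). The annotation also lists a *Ptgs2* transcript of 358 bases, and over the shortest transcripts *Ptgs2* would lead the control order at 50.7 CPM per kb, while *Ptgfr* at 17.9 would stand above *Ptger3* at 13.9 and lead the receptors. The places of these genes therefore depend on the transcript assumed.

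**Figure D2:**
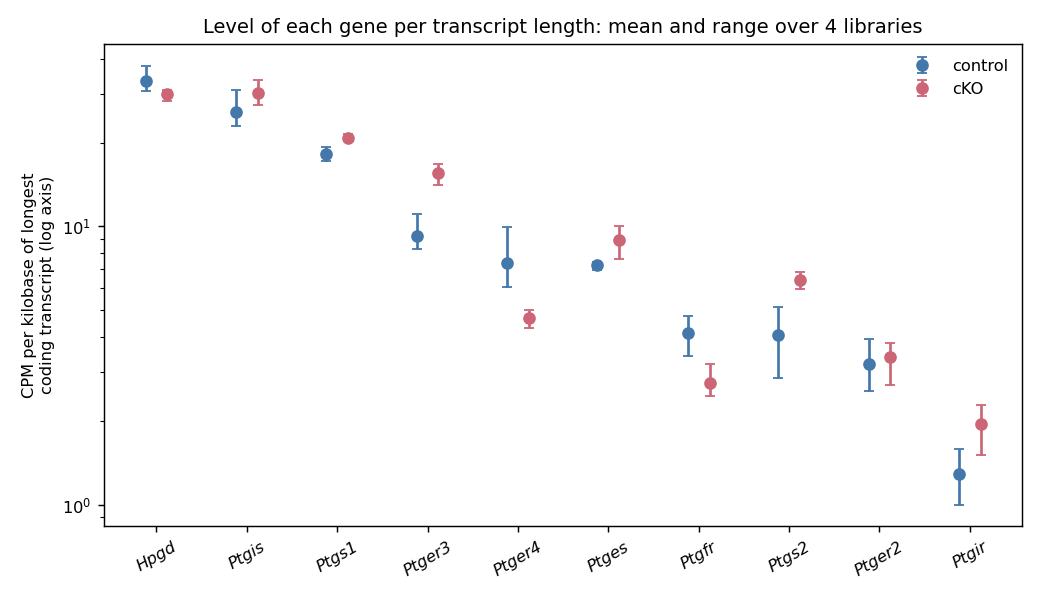
Level of each gene in CPM per kilobase of its longest coding transcript (log axis), with points for the mean and bars for the range over the 4 libraries of a genotype, and the genes in the order of their control means. *Hpgd*, *Ptgis* and *Ptgs1* lead in both genotypes, and *Ptger3* stands apart from the other receptors in cKO at 14.1 to 16.7.

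Ratios within a library do not depend on how libraries are scaled, and they are given as descriptions with no test. *Ptgs2* to *Ptgs1* was 0.296, 0.259, 0.420 and 0.401 in control and 0.436, 0.458, 0.497 and 0.518 in cKO uteri, so that the share of COX-2 was higher in every cKO library. *Ptgs1* to *Hpgd*, synthesis against inactivation, was 0.795, 0.910, 1.05 and 1.02 in control and 1.19, 1.14, 1.29 and 1.12 in cKO, again without overlap. *Ptgis* to *Ptges*, the prostacyclin against the prostaglandin E branch, ran from 1.80 to 2.41 in control and from 1.76 to 2.26 in cKO, and the groups overlapped.

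Of the 5 receptors, *Ptgfr* and *Ptger3* were summed against those that raise cyclic AMP (*Ptger2*, *Ptger4* and *Ptgir*). *Ptger1*, which raises calcium and is not among the 10 genes, was not in this sum. This ratio was 1.32, 1.11, 1.58 and 1.73 in control and 1.68, 1.92, 2.29 and 1.93 in cKO, with overlap, and of the genes above the line *Ptger3* rose and *Ptgfr* fell. *Ptger3* to *Ptger4*, a ratio chosen after their values were seen, was 1.10, 0.815, 1.33 and 1.74 in control and 2.84, 3.36, 3.39 and 2.97 in cKO. On the log2 scale its mean went from 0.26 ± 0.46 to 1.65 ± 0.13 (SD, 4 mice each), and each cKO library had a higher ratio than each control.

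**Figure D3:**
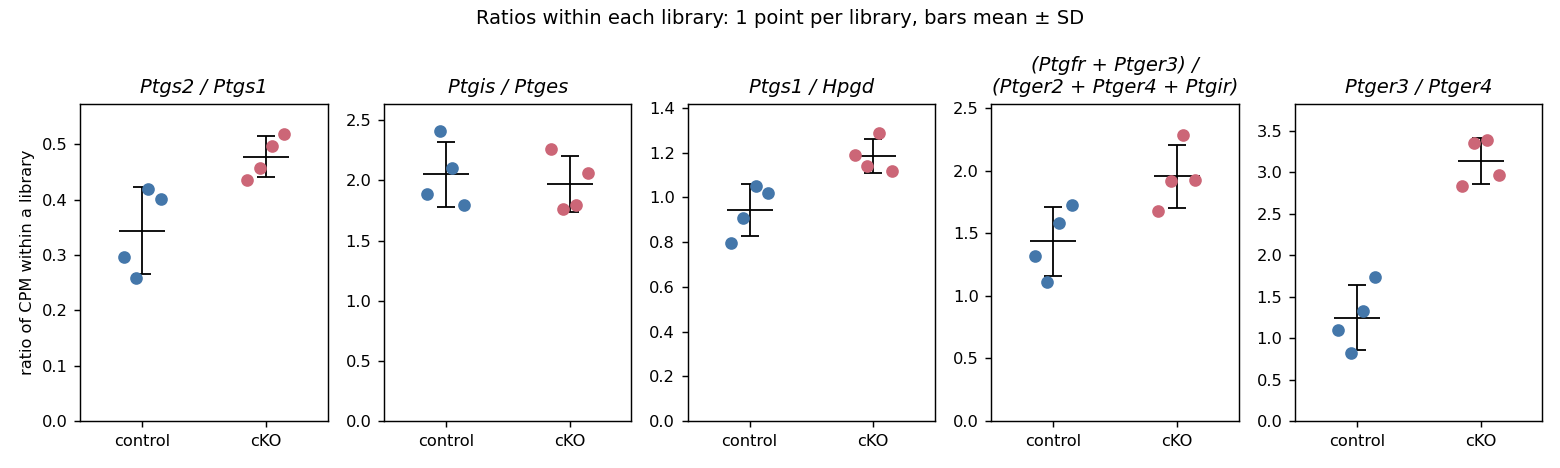
Ratios of CPM within each library (vertical axes, from 0), with 1 point per library and bars for mean ± SD of the 4 control and 4 cKO libraries. *Ptger3* to *Ptger4* separates the genotypes, at 0.815 to 1.74 in control and 2.84 to 3.39 in cKO, and *Ptgis* to *Ptges* overlaps.

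Around these 10 genes, 36 further genes of the eicosanoid pathway were listed and 33 passed the filter. Of these, 1 rose and 1 fell, against the background of 5.34% in either direction, and their median log2 fold change was 0.04. None of the 6 tested genes that release arachidonate passed, and the most abundant, *Pla2g4a*, the cytosolic phospholipase that supplies cyclooxygenases, averaged 279 ± 39.0 CPM in controls against 309 ± 52.3 CPM in cKO uteri (SD, 4 mice each). The log2 fold change was 0.15 (edgeR adjusted p = 0.524). None of the 8 other terminal synthases passed either, with *Akr1b3*, an aldo-keto reductase with prostaglandin F synthase activity, at 66.5 ± 4.03 and 62.3 ± 3.20 CPM. The secreted phospholipase gene *Pla2g2a* had no count in any library, and *Pla2g2e* and *Akr1c18* were under the filter.

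*Zadh2*, which encodes a reductase that acts on the products of HPGD, was the 1 gene of 5 for breakdown and transport that fell. It was at 130, 128, 121 and 122 CPM in control and 99.3, 104, 107 and 106 CPM in cKO, without overlap, with a log2 fold change of -0.26 (SE 0.05, adjusted p = 0.0110 by edgeR). Without control replicate 1 its edgeR adjusted p was 0.053. *Alox12*, the 12-lipoxygenase that takes arachidonate to another branch and is abundant in platelets, was the 1 gene of 9 of the lipoxygenase branch that rose. It was at 8.80, 11.7, 8.46 and 7.47 CPM in control and 15.2, 13.0, 12.6 and 11.4 CPM in cKO, with overlap between control replicate 2 and cKO replicate 4. Its log2 fold change was 0.52 (SE 0.14, adjusted p = 0.0467 by edgeR), and it lost its call in 6 of the 8 fits without 1 library. Platelet and red blood cell markers summed to 30.8 to 35.7 CPM in control and 31.3 to 73.9 CPM in cKO, and most of the sum in the highest library was haemoglobin. Of the 4 of them tested, *Itga2b*, an integrin of platelets named after its values were seen, rose 1.40-fold without overlap (10.6 ± 1.11 CPM in controls against 14.9 ± 2.50 CPM in cKO uteri, edgeR adjusted p = 0.0408), and *Pf4* was at 6.86 ± 0.468 against 8.10 ± 0.80 CPM (edgeR adjusted p = 0.242). Their part in the *Alox12* value was not tested.

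The 5 other receptor and partner genes had positive log2 fold changes with a median of 0.17, and none passed. The most abundant was *Ptgfrn*, a membrane protein that binds FP, with 321 ± 35.7 CPM in controls against 330 ± 10.5 CPM in cKO uteri (SD, 4 mice each; log2 fold change 0.04, edgeR adjusted p = 0.798). Named after their values were seen, the thromboxane receptor *Tbxa2r* was at 11.4 ± 1.52 and 14.8 ± 1.14 CPM without overlap (edgeR adjusted p = 0.0611), and the fourth prostaglandin E receptor, *Ptger1*, which raises calcium, was at 29.8 ± 2.75 and 31.0 ± 1.12 CPM (edgeR adjusted p = 0.696). *Ptgds*, the prostaglandin D synthase, was at 8.99 ± 2.98 and 5.35 ± 1.07 CPM (edgeR adjusted p = 0.0950). Both *Tbxa2r* and *Ptgds* passed with DESeq2, with the likelihood ratio test of edgeR and without control replicate 2. *Tbxa2r* also passed with upper quartile scaling, and *Ptgds* with a replicate block.

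**Figure D4:**
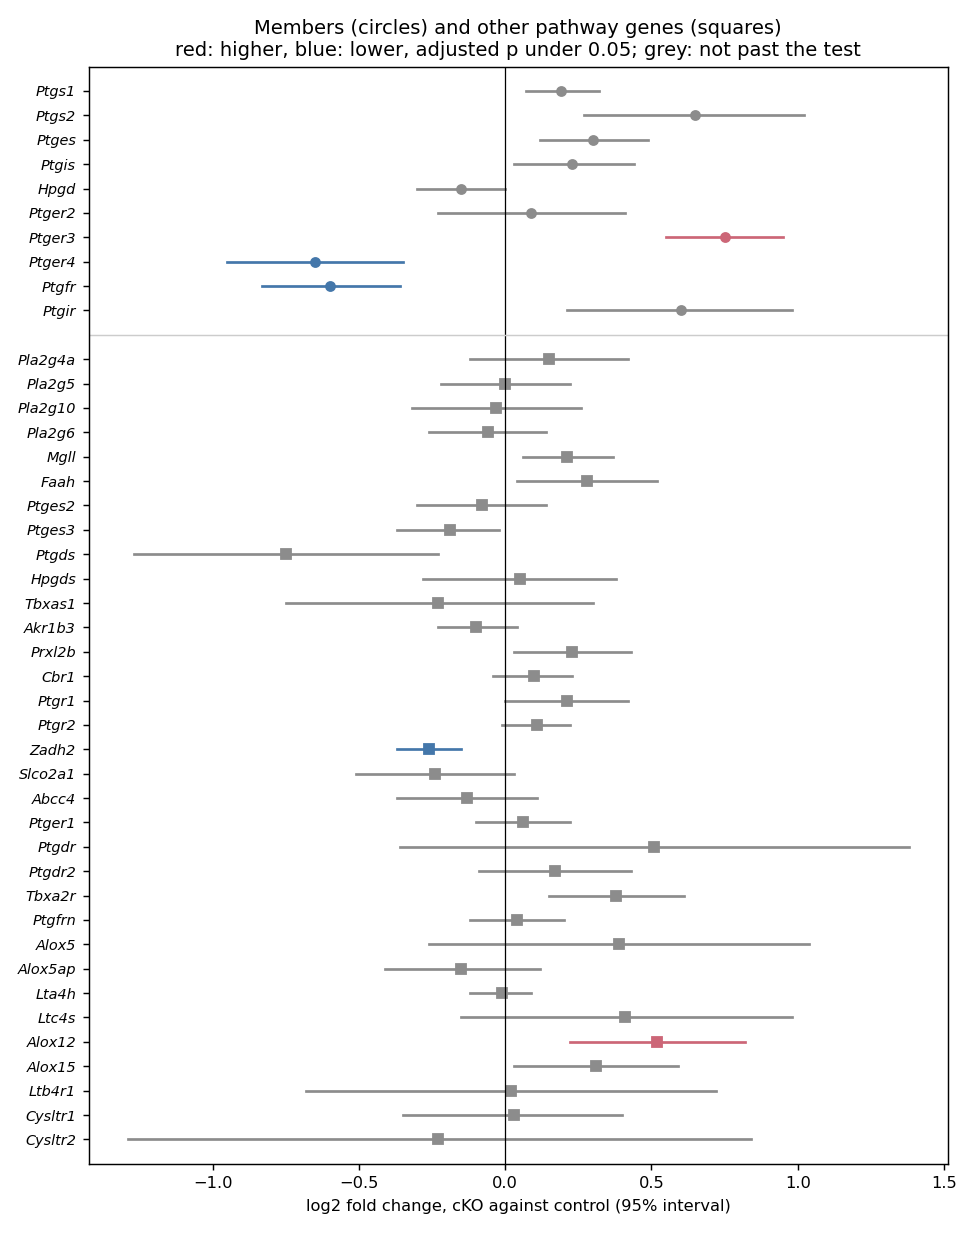
Log2 fold change of cKO against control (horizontal axis) for the 10 genes (circles) and the 33 other pathway genes tested (squares), with bars for the 95% interval of the edgeR fit of each gene. Coloured are the genes past the test after adjustment over all 16658 genes, which were *Ptger3* and *Alox12* (higher, 0.75 and 0.52) and *Ptger4*, *Ptgfr* and *Zadh2* (lower, -0.65, -0.60 and -0.26).

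The 3 receptor calls held to different degrees. *Ptger3* passed in all 8 fits that left out 1 library, with log2 fold changes from 0.70 to 0.85 and edgeR adjusted p from 9.23e-05 to 0.00339. *Ptgfr* also passed in all 8, with log2 fold changes from -0.68 to -0.52 and edgeR adjusted p from 0.00257 to 0.0345, and *Ptger4* passed in 5 of 8. With the adipocyte score as a covariate in edgeR, where cKO replicate 4 again largely sets the genotype term, *Ptger3* kept its call (adjusted p = 0.0465), while *Ptgfr* stood at -0.42 (adjusted p = 0.45) and *Ptger4* at -0.62 (adjusted p = 0.42). Only 72 of all genes passed in that fit. In cKO replicate 4 by itself, set against the 4 controls in a fit chosen after seeing the data, the log2 fold changes were 0.77 for *Ptger3*, -0.55 for *Ptger4* and -0.37 for *Ptgfr*. None of these passed (edgeR adjusted p = 0.13, 0.768 and 0.708), in a fit that assumes the lone cKO library varies like the controls and calls 35 genes in all.

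**Figure D5:**
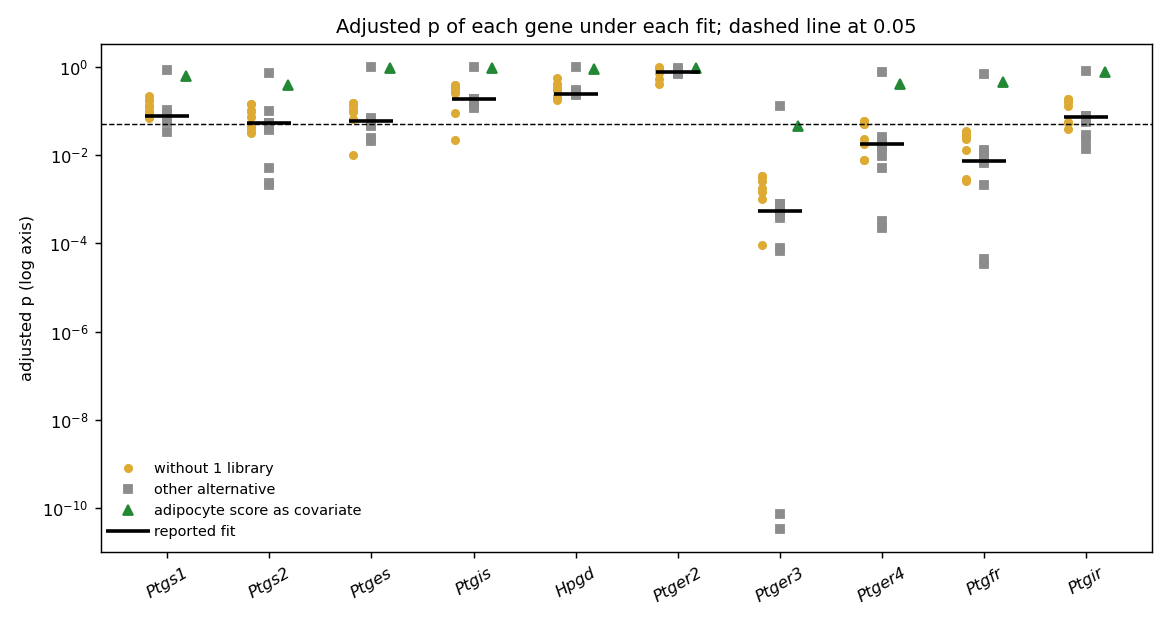
Adjusted p (vertical log axis) of the 10 genes in the reported fit (bar), in the 8 fits without 1 library (circles), in the other alternatives (squares) and with the adipocyte score as a covariate (triangles), with a dashed line at 0.05. *Ptger3* lies under the line in every fit except cKO replicate 4 alone against the controls (0.13), and *Hpgd* and *Ptger2* lie above it throughout.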

How the data were processed

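RNA-seq libraries (TruSeq stranded mRNA) were made from whole PD10 uteri, 1 per mouse, of 4 controls and 4 *Ezh2 Amhr2*-Cre cKO mice. The authors trimmed reads with Trimmomatic, aligned them to GRCm38 with HISAT2, obtained gene-level counts from featureCounts, and deposited these raw counts by Entrez gene. Versions, annotation release, strand setting and treatment of multi-mapping reads are not given in the sources used here, so overlapping and antisense genes are uncertain. The authors' tables of their edgeR comparison (log2 fold changes and p-values) and of log2 normalized CPM were not used, except for gene symbols.

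Genes whose CPM exceeded 0.2 in 4 or more libraries entered the test in R 4.3.3 and edgeR 4.0.16 (TMM, glmQLFit and glmQLFTest with robust = TRUE, prior count 0.125, Benjamini-Hochberg adjustment over 16658 genes), with all 8 libraries and no covariate. The SE was the size of the log2 fold change divided by the square root of F. The two-sided exact permutation test used log2(CPM + 0.1). With 25287141 to 36685807 counts per library, 3 counts, the upper limit for a gene with none, came to 0.0824 to 0.117 CPM, which covers counting error only. No pair of libraries differed by as little as sampling noise (chi-square per gene 7.49 to 30.5 over 28 pairs). Scripts were tested on simulated data.

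The members, lists and tests were chosen with earlier results of these data known. Named are the 10 members, *Ezh2*, and of each further pathway list the genes past the test or otherwise the most abundant by mean CPM over all libraries of both genotypes. Cell marker lists are given by their sums, with *Fabp4* and *Adipoq* for adipocytes, and any other marker or gene is named after its values were seen. Locations are from RefSeq (GRCm38.p6), and transcript lengths from GENCODE vM21. Alternatives were other scalings (RLE, upper quartile, library totals), filters and prior counts, DESeq2 1.42.0, limma-voom 3.58.1, a likelihood ratio test, robust = FALSE, an adipocyte score, a replicate block, a fold over 2, the shortest transcript and leaving out each library. The adipocyte score was the mean log2 level of 7 markers, centred over the libraries. The markers were not scaled singly, so those with the widest log2 range weigh most. The labels give tissue, genotype and postnatal day but no batch, so no batch was modelled. The p-values set the group difference against the spread among these 4 and 4 uteri, which edgeR moderates with that of all genes.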

Additional observations from a re-analysis of the deposited data

Results flagged for a closer look

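Among 72 groups of 4 libraries examined for a library far from the others, 1 stood out: the summed stromal markers of cKO replicate 4, at 9890 CPM against 12600 to 12700 CPM in the other cKO uteri. The gap was 0.96 of the group's range, over the 95% limit of Dixon's test for 4 samples, and chance sets apart about 1 in 20 groups. This library is also the cKO library with the lowest summed adipocyte markers. In it, *Col3a1* was at 6700 CPM against 8370 to 8610 CPM in the other cKO uteri. *Col1a1* was at 1620 against 2120 to 2340 CPM. *Dcn*, *Lum* and *Vim* were also lowest in it, while *Pdgfra* and *Hoxa11* lay within the range of the other cKO uteri. No gene of the 10 had a library that stood apart by this measure.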

How the results depend on the processing

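Of the 10 genes, 3 passed the reported test, and of the 33 other pathway genes 2 did. The members past the test numbered 7 with DESeq2, 6 with the likelihood ratio test, 1 with the adipocyte score as covariate and 0 with cKO replicate 4 alone or with a fold over 2 as well. The pathway genes numbered 4 with DESeq2, 4 with the likelihood ratio test, 1 with robust = FALSE, and 0 with the adipocyte score, with cKO replicate 4 alone and with a fold over 2. All genes past the test went from 889 to 1510 with DESeq2, 1512 with the likelihood ratio test, 72 with the adipocyte score, 35 with cKO replicate 4 alone and 217 with a fold over 2. Without each library in turn, 2 to 6 members passed (6 without control replicate 2), 0 to 4 pathway genes (0 without control replicate 1, 4 without control replicate 2) and 393 to 1773 of all genes (393 without control replicate 1, 1773 without cKO replicate 4). With a replicate block, 5 members passed (*Ptgs2* and *Ptgir* besides the 3 receptors), 3 pathway genes and 1240 of all genes. Same-numbered libraries did not deviate together in every pair (correlations 0.04, 0.13, -0.03 and 0.22), and control replicate 1 correlated best with cKO replicate 2 (0.15), so the numbers were not taken as pairs. The causes of these moves were not tested, except that the fits without libraries hold fewer samples.

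Other scalings, filters, prior counts and limma-voom kept the 3 receptor calls, with 3 or 4 members past the test. The 1 reversed direction was *Ptger2* without control replicate 4, at -0.01 (from -0.01 to 0.20 over the fits without 1 library). Per kilobase of the shortest transcript, control levels moved to 50.7 for *Ptgs2*, 31.8 for *Ptgis*, 13.9 for *Ptger3*, 17.9 for *Ptgfr* and 1.56 for *Ptgir*. The 10 genes had between 93 (*Ptgir*) and 2131 (*Ptgis*) counts in a library, and with 4 mice a group the exact permutation test cannot go below 0.029.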
